A study of Mus with 8 samples.

Results

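The genes described are 8 collagen genes outside the fibrillar class: Col6a1, Col6a2, Col6a3, Col8a1, Col12a1, Col14a1, Col16a1 and Col13a1. They were chosen by name, with their difference between the hosts in these tumours already known, and a probe was taken as theirs where its accession was a RefSeq transcript of the gene. They are 8 of the 31281 genes and transcripts tested in the series, and 12 probes matched them, of which 11 were kept because their signal cleared background well in 4 or more of the 8 tumours. The first 7 are called stromal collagens below, and Col13a1, which encodes a transmembrane collagen, is set against them.

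Tumours of MC38 cells, a mouse colon cancer line, grew under the skin of 4 Ext1S100a4Cre hosts and 4 WT hosts, B6 mice per the labels, and were removed after 25 to 30 days. Ext1S100a4Cre hosts carried floxed Ext1 on both alleles and a Cre driven by S100a4, a gene of fibroblasts and of some leukocytes. WT hosts were wild type, and the labels used here give no age or sex for either host. MC38 cells with their own Ext1 were put into both hosts. RNA came from the whole tumour, so cancer cells and host cells were measured together. Each tumour was a separate sample of its host, and 0.5 µg of its RNA was hybridised, labelled with Cy3, to an Agilent array of the 1-colour kind. Levels are log2 of the processed spot intensity minus the array's 75th percentile over spots that are not controls. They can be set side by side between tumours for 1 probe but not between probes. Differences are given on the log2 scale as the mean of Ext1S100a4Cre tumours minus the mean of WT tumours, with limma's standard error (SE) from the fit across all genes. The study's title puts its question as what less heparan sulfate in fibroblasts does to colon tumour growth.

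Collagens are trimers of chains wound into a triple helix. Fibrillar collagens build the cables of connective tissue, while the other classes form networks and beaded filaments, decorate the surface of fibrils or stay anchored in the cell membrane. In tumours much of the extracellular collagen is made by fibroblasts, and the amount of collagen-rich stroma varies between tumours. Collagen XIII differs in kind from the rest of the set: it crosses the plasma membrane, sits at adhesion sites and is best known from the neuromuscular junction and the muscle-tendon junction.

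In the 8 tumours the 7 stromal collagens varied together and were lower on average in the Ext1S100a4Cre host, while Col13a1 was higher in every Ext1S100a4Cre tumour than in any WT tumour. The mean over the 7 stromal collagens, each relative to its own 8-tumour mean, was -2.59, 0.66, 0.21 and -0.72 in Ext1S100a4Cre tumours 1 to 4, against 0.032, 0.54, 1.68 and 0.18 in WT tumours 1 to 4. Ext1S100a4Cre tumour 1 stood below all others and WT tumour 3 above all others. The remaining 6 tumours overlapped between hosts, with Ext1S100a4Cre tumour 4 the lowest of them. The difference of the means was -1.22 log2 units. Col13a1 on the same scale was 0.81, 0.60, 0.22 and 0.45 in the Ext1S100a4Cre tumours, against -0.48, -0.48, -0.44 and -0.68 in the WT tumours. The hosts did not overlap, and the lowest Ext1S100a4Cre tumour was tumour 3.

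**Figure D1:**
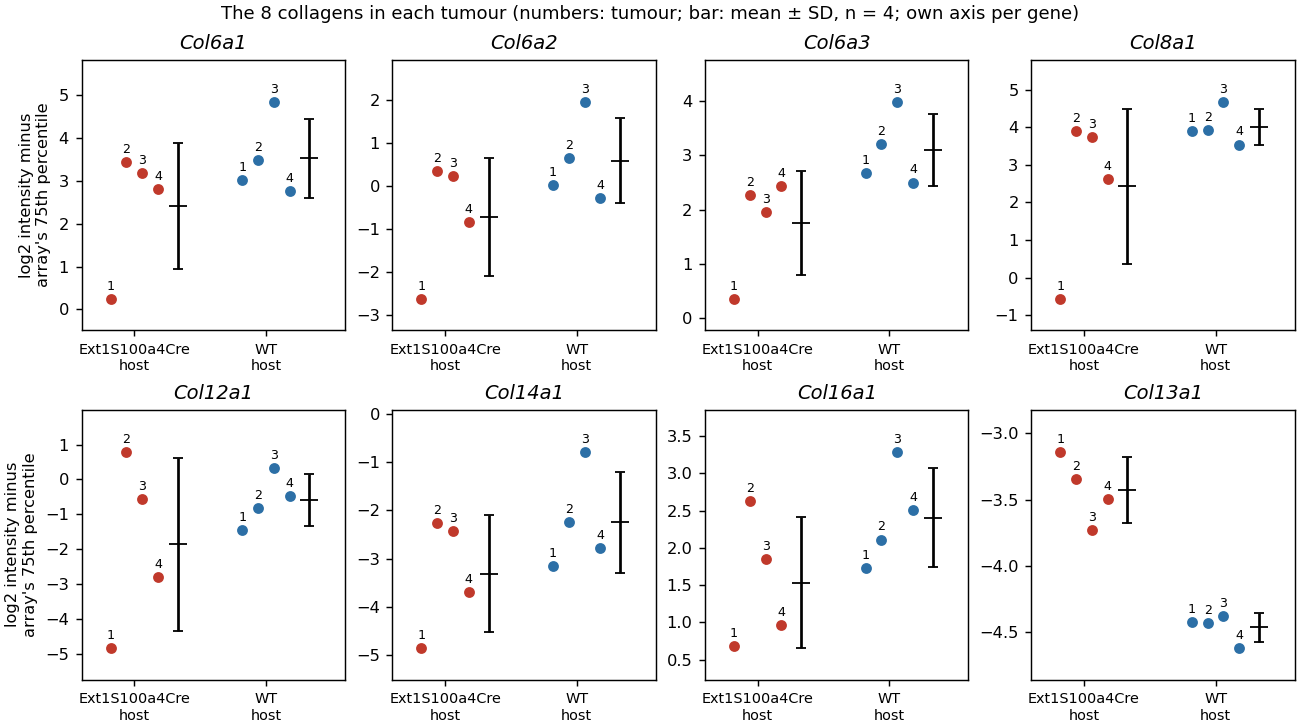
Level of each of the 8 collagens (log2 intensity minus the array's 75th percentile, own axis per gene) in each numbered tumour of the Ext1S100a4Cre host and the WT host, with the mean and SD over 4 tumours beside the points. Ext1S100a4Cre tumour 1 is the lowest point for all 7 stromal collagens, and the Col13a1 points of the hosts lie apart, at -3.73 or above in the Ext1S100a4Cre host and at -4.38 or below in the WT host.

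Collagen VI is assembled from 3 different chains into beaded microfilaments that link cells to the matrix around them. Col6a1 (alpha 1 chain) was at 0.25, 3.43, 3.19 and 2.81 in Ext1S100a4Cre tumours 1 to 4, against 3.03, 3.49, 4.84 and 2.77 in WT tumours 1 to 4. Apart from Ext1S100a4Cre tumour 1 at the bottom and WT tumour 3 at the top, the tumours of both hosts lay close together. Its mean was 2.42 ± 1.47 in the Ext1S100a4Cre host and 3.53 ± 0.92 in the WT host (SD, n = 4 each), a difference of -1.11 (SE 0.75). Col6a2 (alpha 2 chain) was at -2.61, 0.36, 0.25 and -0.84 in the Ext1S100a4Cre tumours, against 0.024, 0.66, 1.96 and -0.27 in the WT tumours. The same tumours were lowest and highest as for Col6a1, and the hosts overlapped. The difference was -1.30 (SE 0.74). Col6a1 and Col6a2 lie next to each other on chromosome 10, with 0 protein-coding genes between them in the RefSeq order of GRCm38.p6. Col13a1 is on the same chromosome, 94 protein-coding genes away from Col6a2.

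Col6a3 encodes the alpha 3 chain, the longest of the collagen VI chains, whose cleaved end is released as endotrophin. It was at 0.35, 2.26, 1.96 and 2.44 in Ext1S100a4Cre tumours 1 to 4, against 2.68, 3.21, 3.98 and 2.50 in WT tumours 1 to 4. Every Ext1S100a4Cre tumour was below every WT tumour, although Ext1S100a4Cre tumour 4 and WT tumour 4 differed little. The means were 1.75 ± 0.95 in the Ext1S100a4Cre host and 3.09 ± 0.66 in the WT host (SD, n = 4 each), a difference of -1.34 (SE 0.51). A second, dimmer Col6a3 probe gave -4.37, -3.28, -2.69 and -3.12 in the Ext1S100a4Cre tumours, against -2.40, -2.27, -1.10 and -3.23 in the WT tumours. On that probe the hosts overlapped through WT tumour 4, and the difference was -1.12.

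Col8a1 encodes a short-chain collagen that forms hexagonal networks and is made by vessel walls and other mesenchymal cells. It was at -0.56, 3.91, 3.74 and 2.62 in Ext1S100a4Cre tumours 1 to 4, against 3.89, 3.93, 4.66 and 3.54 in WT tumours 1 to 4. Ext1S100a4Cre tumours 2 and 3 lay within the WT range, and tumours 1 and 4 below it. The means were 2.43 ± 2.07 in the Ext1S100a4Cre host and 4.01 ± 0.47 in the WT host (SD, n = 4 each), a difference of -1.58 (SE 0.92).

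Col12a1, Col14a1 and Col16a1 encode fibril-associated collagens, which do not form fibrils themselves but bind to the surface of fibrils or to microfibrils. Col12a1 was at -4.84, 0.79, -0.56 and -2.80 in Ext1S100a4Cre tumours 1 to 4, against -1.44, -0.81, 0.34 and -0.47 in WT tumours 1 to 4. It was the only stromal collagen for which the highest of the 8 tumours was from the Ext1S100a4Cre host, tumour 2. Its means were -1.85 ± 2.48 in the Ext1S100a4Cre host and -0.60 ± 0.74 in the WT host (SD, n = 4 each), and the difference of -1.26 (SE 1.12) was about as large as its error. A second Col12a1 probe, well above background in 2 of 4 Ext1S100a4Cre tumours and 4 of 4 WT tumours, gave a difference of -1.10.

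Col14a1 was at -4.86, -2.26, -2.42 and -3.70 in Ext1S100a4Cre tumours 1 to 4, against -3.16, -2.25, -0.79 and -2.79 in WT tumours 1 to 4. WT tumour 3 stood above the other 7, and Ext1S100a4Cre tumours 2 and 3 lay inside the WT range. The difference was -1.06 (SE 0.70). Col14a1 lies on chromosome 15, as does the targeted gene Ext1, with 9 protein-coding genes between them in the RefSeq order.

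Col16a1 was at 0.69, 2.62, 1.85 and 0.96 in Ext1S100a4Cre tumours 1 to 4, against 1.72, 2.11, 3.29 and 2.50 in WT tumours 1 to 4. Ext1S100a4Cre tumours 1 and 4 were below all WT tumours, and tumours 2 and 3 were inside the WT range. The means were 1.53 ± 0.88 in the Ext1S100a4Cre host and 2.41 ± 0.67 in the WT host (SD, n = 4 each), a difference of -0.87 (SE 0.49). A dimmer second Col16a1 probe, well above background in 2 of 4 Ext1S100a4Cre tumours and 4 of 4 WT tumours, gave a difference of -0.66.

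Col13a1 was at -3.14, -3.34, -3.73 and -3.50 in Ext1S100a4Cre tumours 1 to 4, against -4.42, -4.43, -4.38 and -4.62 in WT tumours 1 to 4. The tumours of the WT host lay within 0.24 log2 units of each other, and all Ext1S100a4Cre tumours lay above them. Ext1S100a4Cre tumour 1, the lowest tumour for every stromal collagen, was the highest for Col13a1. The means were -3.43 ± 0.25 in the Ext1S100a4Cre host and -4.46 ± 0.11 in the WT host (SD, n = 4 each), a difference of 1.03 (SE 0.15) or 2.05-fold. With normexp background correction in place of the deposited one the difference was 0.63 (SE 0.13).

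The Col13a1 probe was dim. Its processed intensity was 97.0, 100.2, 85.8 and 74.97 in Ext1S100a4Cre tumours 1 to 4, against 53.5, 58.9, 49.4 and 45.6 in WT tumours 1 to 4. The intensities were therefore apart before any scaling between arrays. The lowest signal that counted as well above background was 8.99 to 11.4 across the arrays, so the probe cleared it in every tumour. A second Col13a1 probe failed to clear background well in any tumour, and its measured values in the 2 hosts overlapped, so the gene rests on 1 probe.

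Of the 8 members, 7 had a lower mean and 1 a higher mean in the Ext1S100a4Cre host, where 41.9% of all genes tested had a lower mean. The 6 members that were lower by at least 1 log2 unit stand beside 3.61% of all genes, and the 1 member higher by as much beside 1.42%. Col6a3 was the only member lower without overlap of the hosts, beside 1.14% of all genes, and Col13a1 the only one higher without overlap, beside 3.38%. The median difference of the 8 was -1.18, against 0.050 over all genes tested. Since these differences chose the members, the counts are a description only. With limma and Benjamini-Hochberg adjustment, 0 of the 8 members and 0 of all 31281 genes (0%) passed an adjusted p of 0.05. At an unadjusted p under 0.05 stood 1 member in each direction, beside 6.55% of all genes (4.39% higher and 2.16% lower).

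Col13a1 also varied less among tumours of the same host than the other 7, which is a description, since a small spread favours groups that do not overlap. Its SD within hosts was 0.19 log2 units, below the median of 0.30 over all genes tested, and 21.7% of genes had a smaller one. The stromal collagens had SDs within hosts from 0.78 for Col16a1 to 1.83 for Col12a1. For these 7 genes between 87.1% and 98.7% of genes had a smaller SD.

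The stromal collagens varied together from tumour to tumour. Over the 21 pairs of stromal collagens, Pearson's r across the 8 tumours was 0.72 to 0.98 with a median of 0.90. Taken on the deviations from each host's mean, which remove the difference between hosts, r was 0.62 to 0.98 with a median of 0.88. The highest were those of Col6a2 with its neighbour Col6a1 and with Col14a1 on another chromosome, at 0.98 each, and the lowest was between Col6a3 and Col16a1. Without Ext1S100a4Cre tumour 1 and WT tumour 3, over 6 tumours, r was -0.20 to 0.94 with a median of 0.70. In those 6 tumours the low values were those of Col6a3, at -0.20 with Col12a1 and 0.27 at most, with Col6a2. All such values share the same 8 arrays and their scaling, and are given as a description.

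Col13a1 did not join them. Its r with each of the 7 stromal collagens was -0.73 to -0.48 over the 8 tumours and -0.59 to -0.21 on the deviations from the host means. Against the mean of the 7, r was -0.61 and Spearman's rho was -0.26, and r was -0.17 without Ext1S100a4Cre tumour 1 and WT tumour 3. The sign differed by host: within the 4 Ext1S100a4Cre tumours r was below 0 with all 7 stromal collagens, and within the 4 WT tumours it was above 0 with all 7, too few tumours in either for a value. Col13a1 minus the stromal mean was 3.39, -0.055, 0.0043 and 1.16 in Ext1S100a4Cre tumours 1 to 4, against -0.51, -1.03, -2.11 and -0.86 in WT tumours 1 to 4. The hosts were apart on this measure, with Ext1S100a4Cre tumour 1 and WT tumour 3 at the ends, and the means differed by 2.25 log2 units. Scaling an array up or down moves both terms equally and leaves this value as it is.

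**Figure D2:**
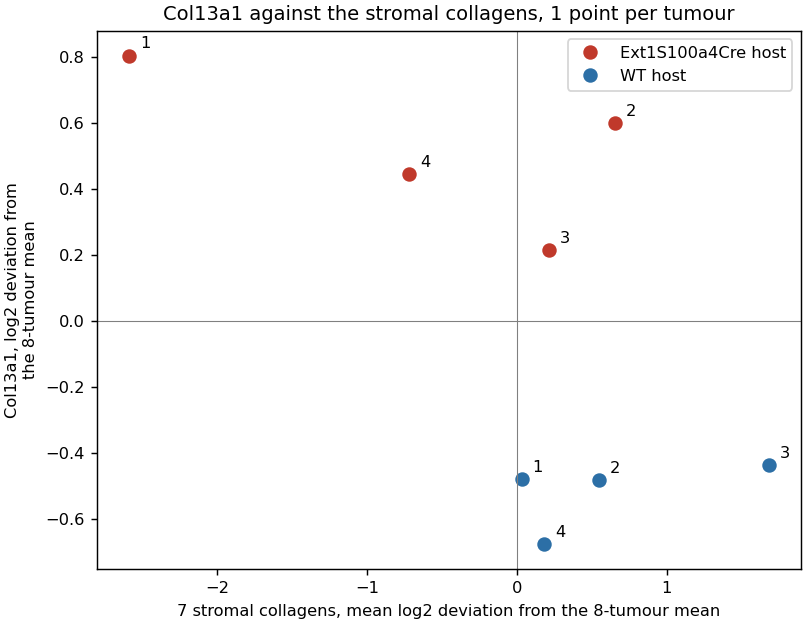
Col13a1 (vertical) against the mean of the 7 stromal collagens (horizontal) in each numbered tumour, both as log2 deviation from the 8-tumour mean. The Ext1S100a4Cre tumours all lie above 0 on the vertical axis and the WT tumours below it, while along the horizontal axis the hosts overlap except for Ext1S100a4Cre tumours 1 and 4 on the left and WT tumour 3 on the right.

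**Figure D3:**
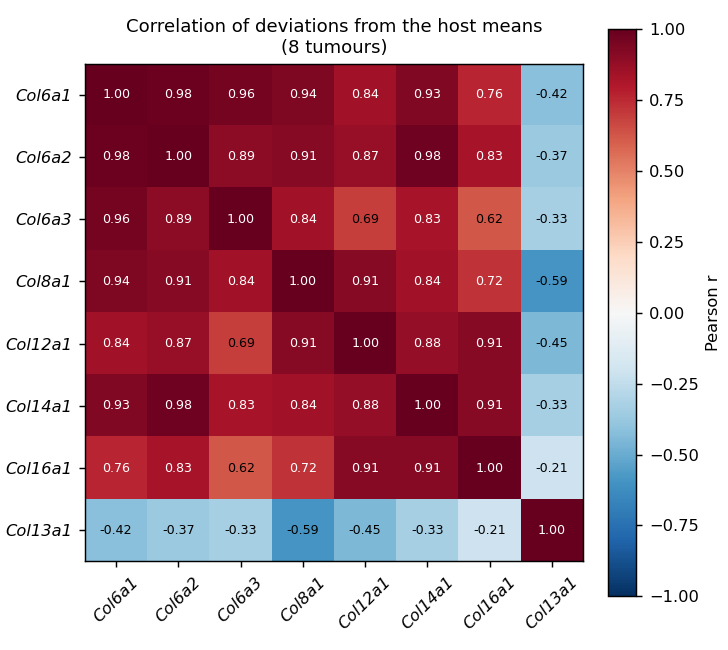
Pearson's r between each pair of the 8 collagens over the 8 tumours, on deviations from the host means. The block of 7 stromal collagens holds values of 0.62 to 0.98 and the row of Col13a1 holds values of -0.59 to -0.21.

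The genes most like each pattern were taken from 15711 named genes by Pearson's r over the 8 tumours. With the stromal mean these were Aspn (asporin, r = 0.996), Postn (periostin, 0.996), Lsp1 (0.995), Kcnmb4 (0.991) and Fbn1 (fibrillin-1, 0.991). Aspn, Postn (also among the fibroblast markers) and Fbn1 encode matrix proteins, Lsp1 an actin-binding protein of leukocytes, and Kcnmb4 a potassium channel subunit. With Col13a1 they were Dnajc4 (0.982), Farp2 (0.975), Tmem222 (0.972), Khk (ketohexokinase, 0.968) and Atp6v1e1 (a subunit of the proton pump of acidic organelles, 0.968). On the deviations from the host means the 5 genes nearest to the stromal mean had r of 0.988 to 0.998, whereas the 5 nearest to Col13a1 had 0.63 to 0.82. That contrast follows in part from the choice by r over all 8 tumours. The host difference of Col13a1 was large beside its spread within hosts, and that of the stromal mean was not.

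Lists of fibroblast, macrophage and endothelial markers had the highest correlations with the stromal mean among the cell type lists. The mean of 15 fibroblast markers was -2.62, 0.94, 0.34 and -0.85 in Ext1S100a4Cre tumours 1 to 4, against -0.017, 0.53, 1.70 and -0.017 in WT tumours 1 to 4, relative to the 8-tumour mean, and 13 of the 15 had a lower mean in the Ext1S100a4Cre host. Its order over tumours was that of the stromal mean (rho = 1), with r = 0.99 over 8 tumours and 0.97 without Ext1S100a4Cre tumour 1 and WT tumour 3. The mean of 12 macrophage markers, at -2.83 to 0.73 in the Ext1S100a4Cre tumours and 0.10 to 2.29 in the WT tumours, had r = 0.97 with the stromal mean and 0.81 without those 2 tumours, and the mean of 10 endothelial markers had 0.96 and 0.73. The mean of 9 adipocyte markers had r = 0.63, that of 10 pericyte and smooth muscle markers 0.74 (0.26 without Ext1S100a4Cre tumours 1 and 3) and that of 13 skeletal muscle markers 0.22. On deviations from the host means r was higher, at 0.83 for adipocyte, 0.81 for pericyte and smooth muscle and 0.79 for skeletal muscle markers. The mean of 11 epithelial markers had r = -0.02, and 10 of these 11 were well above background in all 8 tumours. In whole tumours, fewer cells of a type and less RNA per cell cannot be told apart, and the part of cell numbers in the stromal values was not tested.

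The highest r of any cell type list with Col13a1 over the 8 tumours was 0.43, for skeletal muscle, and the lowest was -0.67, for macrophages. With fibroblast markers its r was -0.54 over 8 tumours and 0.045 without Ext1S100a4Cre tumour 1 and WT tumour 3. Skeletal muscle markers (13 of 16 measured, all with a higher mean in the Ext1S100a4Cre host) were high in Ext1S100a4Cre tumours 2 and 3, at 3.48 and 4.28 relative to the 8-tumour mean, against -1.68 and -0.57 in Ext1S100a4Cre tumours 1 and 4 and -1.49 to -1.20 in the WT tumours. Most of these genes overlapped between hosts, but Actn3 and Mb were higher in all Ext1S100a4Cre tumours, as 3.38% of all genes were. Actn3 was at -3.62, -1.15, -1.05 and -3.57 in Ext1S100a4Cre tumours 1 to 4, against -5.91 to -4.86 in the WT tumours. Mb was at -5.99, -0.94, 0.23 and -6.16, against -8.22 to -6.85, and was well above background in 5 of 8 tumours. Col13a1 was highest in Ext1S100a4Cre tumour 1 and lowest of its host in tumour 3, the tumour with most muscle signal, and its r with the muscle list on deviations from the host means was -0.59. On that measure the r of Col13a1 was negative with every cell type list, from -0.75 for pericyte and smooth muscle to -0.23 for epithelial markers. Of 12 genes of the neuromuscular junction 8 were measured, 4 with a lower and 4 with a higher mean in the Ext1S100a4Cre host, 0 of them called by limma at an adjusted or unadjusted p of 0.05. The median difference of these 8 was -0.050 and the r of their mean with Col13a1 was -0.0020, or -0.55 on deviations from the host means. With no background filter all 12 were measured, and the median difference was 0.43. Their mean difference was then 0.67, against 0.096 for the 8. The genes added in this way were well above background in fewer than 4 tumours. Whether muscle or junction tissue adds to the Col13a1 signal was not tested.

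The RNA of genes whose proteins are known to bind or receive these collagens largely tracked the stromal members. Of 18 binding partners and receptors 17 were measured, 14 with a lower and 3 with a higher mean in the Ext1S100a4Cre host, and 0 passed limma's test at an adjusted or an unadjusted p of 0.05. Their median difference was -0.94, against 0.050 over all genes, and their mean had r = 0.99 with the stromal mean. The size of that difference hung on single tumours. It was -0.22 without Ext1S100a4Cre tumour 1 and 0.0019 without Ext1S100a4Cre tumour 1 and WT tumour 3. The list shares Dcn and Lum with the fibroblast markers and Cspg4 with the pericyte markers. Antxr1, a receptor for collagen VI, was at -3.99, -1.28, -0.85 and -1.27 in Ext1S100a4Cre tumours 1 to 4, against -0.79, -0.36, 1.33 and -0.62 in WT tumours 1 to 4. The hosts were apart, as 1.14% of all genes were in this direction, although Ext1S100a4Cre tumour 3 and WT tumour 1 differed little. The Antxr1 difference was -1.74 (SE 0.76, limma's adjusted p = 0.747). Itga11, a collagen-binding integrin chain of fibroblasts, differed by -1.93 (SE 1.04), and Tnxb, tenascin-X, which binds collagens XII and XIV, by -2.16 (SE 1.17), with overlap and the same adjusted p of 0.747.

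The other collagen genes were tested in the same fit, 31 of 37 being measured. Of these, 24 had a lower and 7 a higher mean in the Ext1S100a4Cre host, with a median difference of -0.70, and 0 passed an adjusted p of 0.05 (lowest 0.733). At an unadjusted p under 0.05, 8 were lower and 4 were higher, beside 2.16% and 4.39% of all genes. The lower ones numbered 0 without WT tumour 3, 1 without Ext1S100a4Cre tumour 1 and 2 without Ext1S100a4Cre tumour 4. They numbered 2 without WT tumour 2 and 3 without WT tumour 4. Without Ext1S100a4Cre tumour 2 they numbered 9, without Ext1S100a4Cre tumour 3 8, and without WT tumour 1 9. The higher ones numbered 4 or 5 without any 1 tumour. In the fibrillar class 10 of 11 had a lower mean, among them Col1a1 (-1.80, SE 0.71) and Col3a1 (-2.11, SE 0.88), and the class mean had r = 0.97 with the stromal mean. Col8a2, which forms the same network as Col8a1, differed by -3.06 (SE 1.28) and was well above background in 6 of 8 tumours. Its size rested on Ext1S100a4Cre tumours 1 and 4, at -8.45 and -7.92, and was -0.95 without them and -0.96 with normexp. The paired basement membrane chains Col4a1 and Col4a2 differed by -0.28 each (SE 0.42 and 0.43), against a median of 0.050 over all genes. Both lower means rested on Ext1S100a4Cre tumour 1, where Col4a1 was at 0.74 and Col4a2 at 0.061. Col4a1 was at 2.34 to 2.71 in Ext1S100a4Cre tumours 2 to 4, against 2.26 to 2.66 in the WT tumours. For Col4a2 these ranges were 1.72 to 2.13 and 1.55 to 1.98.

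Col13a1 was not the only collagen with a higher mean. Col7a1 (anchoring fibrils of skin, 0.59, SE 0.20), Col20a1 (0.75, SE 0.18) and Col22a1 (a collagen of tissue junctions, 1.50, SE 0.52) were also higher without overlap of the hosts. Their adjusted p values were 0.747, 0.733 and 0.747. Col26a1 was higher by 1.18 (SE 0.41, limma's adjusted p = 0.747), and by 0.71 to 1.54 under the alternatives. Its hosts overlapped through Ext1S100a4Cre tumour 4, at -3.25, against -4.49 to -3.21 in the WT tumours. Of all genes 3.38% were higher without overlap, and 1.14% lower. Among these other collagens only Col18a1 was lower without overlap, by -0.55 (SE 0.21, limma's adjusted p = 0.747). The Col22a1 difference was 0.93 without WT tumour 3, where it was at -3.31. Col20a1 was at -3.25, -3.28, -3.35 and -3.07 in Ext1S100a4Cre tumours 1 to 4, against -3.98, -4.44, -3.80 and -3.72 in WT tumours 1 to 4. The WT tumours spread over nearly as much as the 2 hosts differed. The other measured collagens with a membrane-spanning segment had lower means. Col17a1 of hemidesmosomes differed by -0.41 (SE 0.59) and Col23a1 by -0.68 (SE 0.34), neither past the threshold in limma (adjusted p of 0.855 and 0.747). The mean difference of these 2 was -0.54, but -0.0085 with normexp and 0.12 without Ext1S100a4Cre tumours 1 and 4. With no background filter, which adds Col25a1, the mean difference of the 3 was -0.21.

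**Figure D4:**
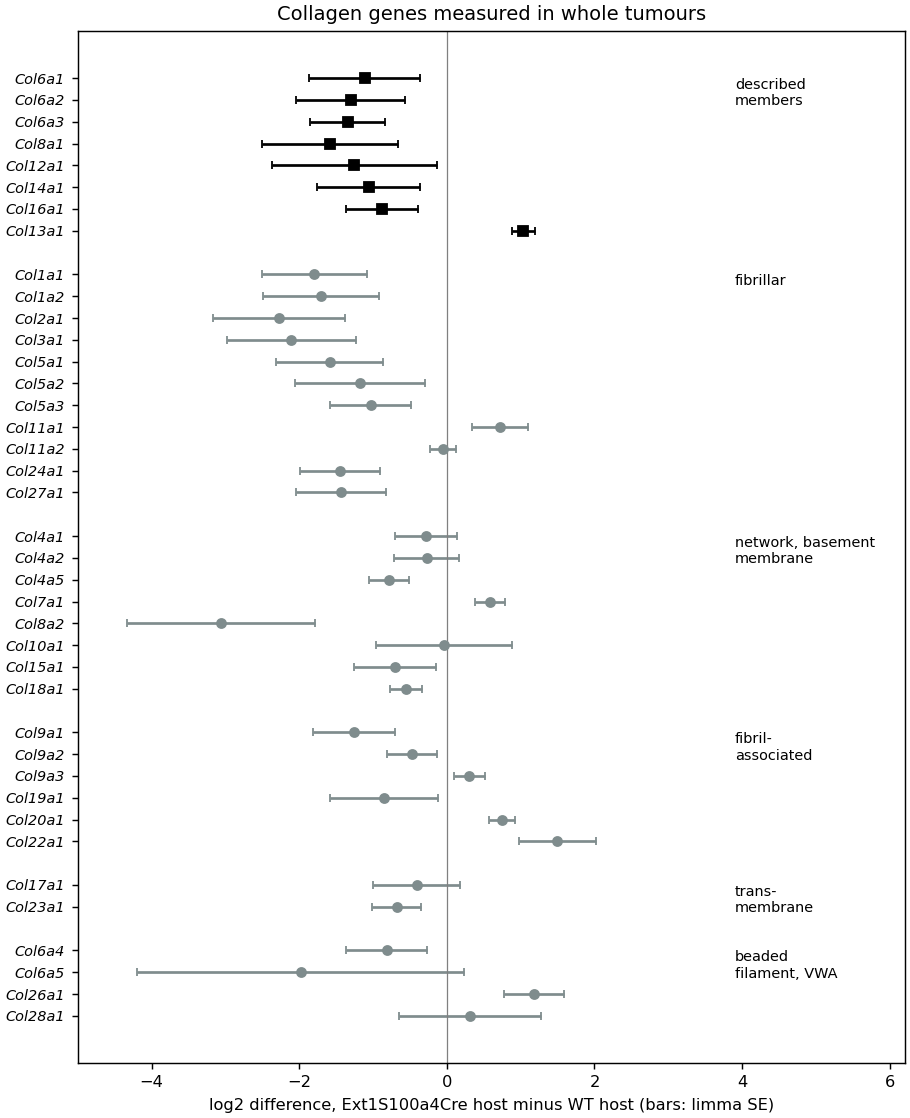
Difference between hosts (log2, Ext1S100a4Cre minus WT, horizontal; bars are limma's SE) for the 8 members, black squares, and the 31 other measured collagens by class, grey circles. Most points lie left of 0, and to the right stand Col13a1 and 7 other collagens. Col22a1 is at 1.50 there, and at 0.93 without WT tumour 3.

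The size of the stromal difference hung on single tumours and that of Col13a1 did not. Without Ext1S100a4Cre tumour 1 the stromal mean difference was -0.56 in place of -1.22, and without WT tumour 3 it was -0.86. Leaving out both gave -0.20, and then the fibroblast marker mean differed by -0.025. Col13a1 differed by 0.94 to 1.14 when any 1 tumour was left out and by 0.97 without those 2. Ext1S100a4Cre tumours 1 and 4 also lacked signal of 4 Y-linked genes: Eif2s3y was at -8.53 and -8.15 there, not well above background, against -1.14 and -1.93 in Ext1S100a4Cre tumours 2 and 3 and -2.25 to -0.40 in the WT tumours. Without Ext1S100a4Cre tumours 1 and 4 the stromal difference was -0.18, that of Col13a1 was 0.93 and that of Col12a1 turned to 0.71. Without Ext1S100a4Cre tumours 2 and 3, those with the highest means of the muscle markers, the stromal difference was -2.26 and that of Col13a1 was 1.14. Within slide rows 1 and 2, which each held 2 tumours of either host, Col13a1 differed by 1.18 and 0.89 and the stromal mean by -1.25 and -1.18.

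**Figure D5:**
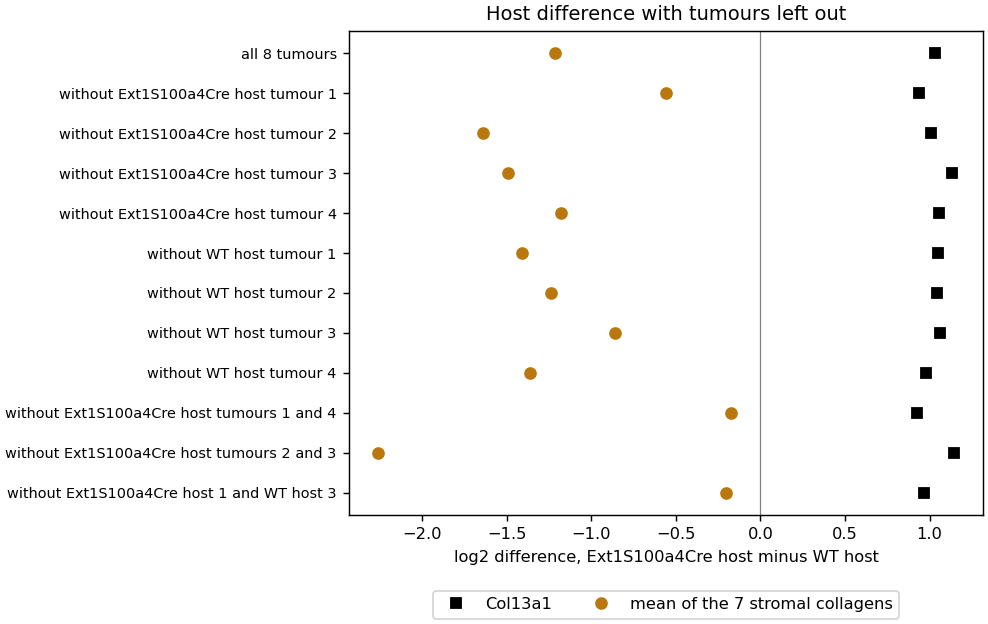
Difference between hosts (log2, Ext1S100a4Cre host minus WT host, horizontal) of Col13a1, squares, and of the mean of the 7 stromal collagens, circles, with all 8 tumours and with the tumours named on the left taken out. The squares stay between 0.93 and 1.14, while the circles run from -2.26 to -0.18.

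As a check of the model in these tissues, Ext1 was at -0.62, -0.27, -0.54 and -0.42 in Ext1S100a4Cre tumours 1 to 4, against -0.55, -0.28, 0.24 and -0.14 in WT tumours 1 to 4. The hosts overlapped, and the difference of -0.28 (SE 0.18) did not pass limma's test (adjusted p = 0.747). Where the probe lies relative to the deleted part is not given in the sources used here, and the MC38 cells add their own Ext1. S100a4 itself differed by 0.11 (SE 0.63, adjusted p = 0.968). The arrays' 75th percentile of intensity was 846.9 to 1265 and the share of probes well above background 65.7% to 71.1%, lowest in Ext1S100a4Cre tumours 1 and 4, with 0 saturated spots. The part of these differences in array brightness in the stromal values was not tested.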

How the data were processed

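Total RNA of 8 whole tumours was measured on 1-colour Agilent arrays, whose number limits the precision. The authors deposited linear spot intensities, made with Agilent Feature Extraction 10.7.3.1 and background-subtracted, per the file headers. Version 9.1 is named in the submitters' processing notes. The deposited series matrix holds the same intensities, with no scaling between arrays (100% of values within 0.01% of the spot averages).

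From the deposited intensities, log2 values were taken and each array's 75th percentile over non-control spots was subtracted. Outlier-flagged spots and controls were left out, and spots of a probe were averaged. Of 56605 probes, 39716 that were well above background on at least 4 arrays were kept. Accessions without versions were matched to RefSeq genes of GRCm38.p6, which named 32994 probes. Since the headers name mm9, no coordinates were taken. The kept probe with the highest mean stood for a gene, which gave 31281 genes and transcripts. The comparison of the hosts used limma 3.58.1 under R 4.3.3 (two-sided, lmFit and eBayes, no covariates) and Benjamini-Hochberg adjustment over all of them. The fit was tested on simulated data. The p-values set the difference between hosts against the spread among tumours of the same host, with limma drawing on the spread of all genes.

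The members and gene lists were chosen with earlier results of these data known. All members are named. Other genes named are collagens, up to 3 examples per list by smallest unadjusted p, the 5 nearest by correlation, Y-linked genes, Ext1 and S100a4. Col4a1, Col4a2, Col17a1 and Col23a1 fall under the collagens. Mb is named because its values in the hosts did not overlap. Alternatives were background correction, scaling, the deposited series matrix, the filter, the probe rule, blocks of replicate number and slide row, the threshold, and left-out tumours.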

Additional observations from a re-analysis of the deposited data

Results flagged for a closer look

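In 4 of 74 groups of 4 tumours that were looked at, 1 tumour lay far from the other 3 of its host by Dixon's criterion, which chance meets in about 1 in 20 groups. None of the 8 members was among them. Each value is a log2 level relative to the mean of the 8 tumours. In Ext1S100a4Cre tumour 1 the mean of the other network and basement membrane collagens was -1.23, far below the other tumours of its host, and so was the mean of the endothelial markers, at -1.43. In WT tumour 3 the mean of the other beaded filament and von Willebrand A domain collagens was 2.06, far above the other WT tumours. Within it Col6a5, a further collagen VI chain, was at 2.43 relative to the 75th percentile in that tumour, against -8.55 to -4.80 in the other 7. Col22a1 was at -2.44 in WT tumour 3, far below the other WT tumours.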

How the results depend on the processing

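Col13a1 was higher and the stromal mean lower in the Ext1S100a4Cre host under all of the alternatives that gave a value. The Col13a1 difference moved to 0.63 with normexp background correction and to 0.78 with the unscaled series matrix, in which the median of all genes was -0.20 in place of 0.050. With any 1 tumour left out it ran from 0.94 to 1.14, the stromal mean difference from -1.64 to -0.56, Col13a1 minus the stromal mean from 1.50 to 2.65, their correlation from -0.79 to -0.31, the count of all genes called from 0 to 2, and that of other collagens called was 0. Single members reversed in 3 cases: Col12a1 was at 0.71 without Ext1S100a4Cre tumours 1 and 4, and Col6a1 and Col12a1 were at 0.049 each without Ext1S100a4Cre tumour 1 and WT tumour 3, an alternative chosen after seeing the data. The count of all genes called was 1 with normexp and 2 without WT tumour 3, all unnamed transcripts. It was 3 without Ext1S100a4Cre tumour 1 and WT tumour 3 (Fam163a and 2 unnamed transcripts, seen only afterwards), and 11 without Ext1S100a4Cre tumours 1 and 4, among them Acta1 and Tnnc2 of muscle and none of the members. Higher genes made up 67.0% of those at an unadjusted p under 0.05, but 85.2% with normexp, 57.5% with median scaling and 6.38% with the series matrix. Tumours of the same number deviated together for numbers 1 and 3 (r of 0.49 and 0.59) and not for 2 and 4 (-0.16 and -0.25), and 4 of 8 tumours correlated best with their own number, so the numbers were not taken to pair the tumours. With the replicate block 0 genes were called, 1588 higher and 1653 lower at an unadjusted p under 0.05 against 1374 and 676 without it, and Col13a1 stayed at 1.03 (SE 0.16), while the SE of Col14a1 was 0.32 with the block and 0.70 without it, and that of Col6a2 0.42 and 0.74. Col13a1 rests on 1 dim probe.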
